A study of Mus musculus with 2 samples.

Results

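*Rgs5*, *Kcnj8*, *Abcc9*, *Higd1b*, *Cox4i2*, *Ndufa4l2*, *Mcam* and *Vtn* are genes by which pericytes are commonly recognized in single-cell transcriptomes. These 8 of the 32285 genes in the count files were taken by name, and their UMIs, each a count of 1 captured RNA molecule, were followed across pericytes, endothelial cells (ECs), fibroblasts, cancer cells and myeloid cells of LLC tumors and between both libraries. The cells were assigned to these classes with markers that include none of the 8 genes.

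LLC (Lewis lung carcinoma) is a mouse lung cancer cell line that grows in C57BL/6 mice. Both groups carried *Gucy1b1* flox/flox alleles: *sGC* Ctr mice were labelled without Cre, whereas *sGC* ∆PC mice were *Cspg4-CreERT2*::*Gucy1b1* flox/flox, written *Gucyc1b1* in the label of that line. Tamoxifen was given to all mice at 4 weeks (5 doses), LLC cells were inoculated at 8 weeks, and tumors were taken 2 weeks after that. Cells of 3 tumors were pooled into 1 droplet-based 3′ library per condition, so tumors cannot be told apart within a library. *Gucy1b1* encodes the β1 subunit of soluble guanylate cyclase, the nitric oxide receptor, and the tamoxifen-dependent Cre is driven from *Cspg4*, which encodes NG2.

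Because each condition is 1 library, the condition cannot be told apart from the library, and no test between conditions was made. All intervals are exact 95% intervals that cover counting error only, and for a count of 0 the level of 3 counts is given as the limit in place of an interval. In *sGC* Ctr, 12220 cells were kept, at a median depth of 35776.5 UMIs. In *sGC* ∆PC, 22498 were kept, at 8685. The gates returned 37 and 26 pericytes with 473533 and 303351 UMIs in total. The other classes had 61 and 56 ECs, 117 and 186 fibroblasts, 7722 and 13511 cancer cells, and 2920 and 3892 myeloid cells. Cells that passed more than 1 gate made up 2.98% and 8.26% of the kept cells and were left out. The libraries shared 131 barcode sequences, 0 of them among pericytes.

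Pericytes are mural cells that wrap the endothelium of capillaries, regulate its stability and permeability, and can contract. Their transcriptome combines regulators of G protein signaling, a potassium channel opened by a fall in ATP, alternative subunits of the mitochondrial electron transport chain, adhesion molecules and proteins laid down in the vascular basement membrane. Smooth muscle cells of larger vessels use many of the same genes.

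The sequences of these genes are described by 2 features. Only counts were used, so whether reads were assigned to the wrong relative was not examined. The first is that 3 of the genes have a common relative whose messages must be told apart from theirs. The coding sequences of *Cox4i2*, *Ndufa4l2* and *Higd1b* were 66.1%, 65.3% and 57.5% identical to those of *Cox4i1*, *Ndufa4* and *Higd1a*. The stretches that hold the longest run of shared bases in each pair were taken from the GENCODE transcripts and read 5′ to 3′, with the run in capitals.

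Cox4i2: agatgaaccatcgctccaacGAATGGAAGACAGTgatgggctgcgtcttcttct
Cox4i1: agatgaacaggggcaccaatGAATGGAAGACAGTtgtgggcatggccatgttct
Ndufa4l2: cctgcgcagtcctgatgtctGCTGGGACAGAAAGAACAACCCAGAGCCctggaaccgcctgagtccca
Ndufa4: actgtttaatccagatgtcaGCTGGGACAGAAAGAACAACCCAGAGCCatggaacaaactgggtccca
Higd1b: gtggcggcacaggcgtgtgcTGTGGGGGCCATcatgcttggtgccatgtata
Higd1a: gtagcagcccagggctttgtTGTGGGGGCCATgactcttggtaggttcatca

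The shared runs were 14, 28 and 12 bases long, the longest of them in the pair of *Ndufa4l2* and *Ndufa4*. The flanking bases differ at many positions in each pair. Other members also have relatives, whose stretches are not shown. *Abcc9* and *Abcc8* were 69.2% identical with a shared run of 23 bases, and *Kcnj8* and *Kcnj11* 68.5% with 21. *Rgs5* was 59.4% identical to *Rgs4* and 59.2% to *Rgs16*, with runs of 17 and 20.

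The second is the neighborhood of the genes. *Kcnj8* (GRCm38, chr6:142564837-142571614, 3 exons) and *Abcc9* (chr6:142587862-142702315, 40 exons) lie on the minus strand 16247 bases apart, with 0 genes between them. *Rgs5* (chr1:169655501-169695813, 5 exons) lies on the plus strand. The promoters of these 3 genes, from 250 bases before to 50 bases after the RefSeq start site (GRCm38.p6), are given on the strand of the gene, with matches to the searched motifs in capitals.

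Rgs5, chr1:169655251-169655550, plus strand: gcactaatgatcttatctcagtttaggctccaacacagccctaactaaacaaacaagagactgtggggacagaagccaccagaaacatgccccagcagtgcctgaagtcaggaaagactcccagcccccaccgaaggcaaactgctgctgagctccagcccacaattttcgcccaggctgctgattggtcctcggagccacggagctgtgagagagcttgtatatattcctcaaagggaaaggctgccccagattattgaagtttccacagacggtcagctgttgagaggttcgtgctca
Kcnj8, chr6:142571565-142571864, minus strand: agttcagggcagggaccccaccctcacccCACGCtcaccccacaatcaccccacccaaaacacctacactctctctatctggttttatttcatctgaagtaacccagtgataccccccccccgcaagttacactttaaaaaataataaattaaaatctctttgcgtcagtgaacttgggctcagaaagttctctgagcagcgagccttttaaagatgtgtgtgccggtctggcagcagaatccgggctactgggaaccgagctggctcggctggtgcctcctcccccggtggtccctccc
Abcc9, chr6:142702225-142702524, minus strand: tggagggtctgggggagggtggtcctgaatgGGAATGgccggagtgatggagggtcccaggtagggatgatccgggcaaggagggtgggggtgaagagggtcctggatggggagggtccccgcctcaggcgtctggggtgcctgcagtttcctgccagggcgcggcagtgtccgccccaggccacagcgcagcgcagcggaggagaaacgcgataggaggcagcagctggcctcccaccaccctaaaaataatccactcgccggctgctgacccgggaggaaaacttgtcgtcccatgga

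RefSeq promoter windows matched 5 of the 8 genes. Both strands were searched for GTGGGAA (RBPJ), ACGTG and GCGTG (the core of hypoxia response elements), TGTTTAC (forkhead factors), GGAATG (TEAD factors) and the CArG box of serum response factor. *Kcnj8* held 1 match to GCGTG, found as its reverse complement CACGC, and *Abcc9* 1 match to GGAATG. *Vtn* held 1 match to GCGTG and 2 to GGAATG, and *Rgs5* and *Mcam* held 0. Of all 32851 promoter windows, 32.4% held GCGTG and 14.7% held GGAATG. The shares were 19.6% for ACGTG, 6.38% for GTGGGAA, 3.65% for TGTTTAC and 1.63% for the CArG box, none of which was found in the 5 windows.

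The other genes lie on the plus strand. *Higd1b* spans chr11:102835849-102838040 with 3 exons, *Cox4i2* chr2:152754173-152765037 with 4, *Ndufa4l2* chr10:127514967-127517154 with 4, *Mcam* chr9:44134469-44142727 with 16 and *Vtn* chr11:78499091-78502324 with 8. The last exon of *Ndufa4l2* overlaps the end of *Shmt2*, a gene on the opposite strand. *Abcc9* and *Mcam* each overlap 1 antisense gene outside their last exon.

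The deleted gene was examined first. *Gucy1b1* had 59 UMIs in *sGC* Ctr pericytes, or 125 counts per 1000000 UMIs of the class (CPM; 94.8 to 161), with at least 1 UMI in 25 of 37 cells. In *sGC* ∆PC pericytes it had 13 UMIs, or 42.9 CPM (22.8 to 73.3), in 8 of 26 cells. Taken as the log2 of *sGC* ∆PC over *sGC* Ctr, here called the log2 ratio, the difference was -1.54 (-2.53 to -0.66). Counts of a 3′ end measure the message and not the recombined allele.

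The gated pericytes carried their own markers together with RNA of smooth muscle, fibroblast and other markers. The 6 gate markers (*Pdgfrb*, *Notch3*, *Des*, *Gucy1a1*, *Heyl* and *Foxs1*) summed to 2160 and 1915 CPM. The paper reports lower *Notch3* in *sGC* ∆PC pericytes and lists *Gucy1a1* among genes that Notch may regulate. Ratios between the libraries therefore cover only cells that kept enough of these markers. Their part in the ratios was not tested beyond leaving out *Pdgfrb*, *Notch3*, *Des* or *Gucy1a1*, 1 at a time. *Heyl* and *Foxs1* were not left out. Of 8 EC markers, *Pecam1*, *Cldn5*, *Kdr* and *Tie1* were at 0 UMIs in the pericytes of both libraries and *Cdh5* in *sGC* ∆PC alone. The rest were found, and the EC list summed to 46.5 and 65.9 CPM over all pericytes. It had a UMI in 14 of 37 and 13 of 26 cells, at up to 298 and 569 CPM per cell. The cancer cell markers reached 5.73% and 10.9%, the myeloid markers 1.10% and 2.82%, and the fibroblast markers 7.26% and 7.82%, taken as a percentage of the level that set each gate. Per cell these lists summed to 0 to 398 and 0 to 1315 CPM for cancer cells (4 of 4 markers found in both libraries), 0 to 3409 and 87.8 to 5917 CPM for myeloid cells (7 and 8 of 8, with *Adgre1* at 0 in *sGC* Ctr) and 133 to 6626 and 316 to 7595 CPM for fibroblasts (6 and 5 of 7, with *Clec3b* at 0 in both and *Mfap5* in *sGC* ∆PC). Over all pericytes the fibroblast markers summed to 2560 and 2756 CPM, more than the gate markers. Markers of granulocytes summed to 88.7 and 109 CPM over all pericytes, and those of T cells, Schwann cells and erythroid cells to at most 10.6 CPM. At least 1 of 6 smooth muscle markers (*Myh11*, *Acta2*, *Tagln*, *Cnn1*, *Actg2* and *Lmod1*) was found in 34 of 37 and 23 of 26 pericytes. They summed to 5085 and 4276 CPM over all pericytes, and their sum ranged from 0 to 26202 and from 0 to 18930 CPM per cell. The gated cells, here called pericytes, therefore spanned cells with and without smooth muscle transcripts. Whether some of them were smooth muscle cells was not tested.

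Pericytes had the highest level of 7 of the 8 genes in each library. The exception was *Mcam*, which was highest in ECs. Of all genes with a UMI in pericytes and at least 50 UMIs over the 5 classes, pericytes were highest for 27.7% (of 11614 genes) in *sGC* Ctr and 28.8% (of 11096) in *sGC* ∆PC. Pericytes stood at least 4-fold above every other class for 6 of the 8 genes in each library, against 2.37% and 2.35% of all genes. *Ndufa4l2* and *Mcam* were the 2 that did not reach this. The 8 genes together made up 9604 CPM (9327 to 9888) of the RNA of *sGC* Ctr pericytes and 8802 CPM (8471 to 9142) of *sGC* ∆PC pericytes, against at most 775.54 CPM in any other class.

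**Figure D1:**
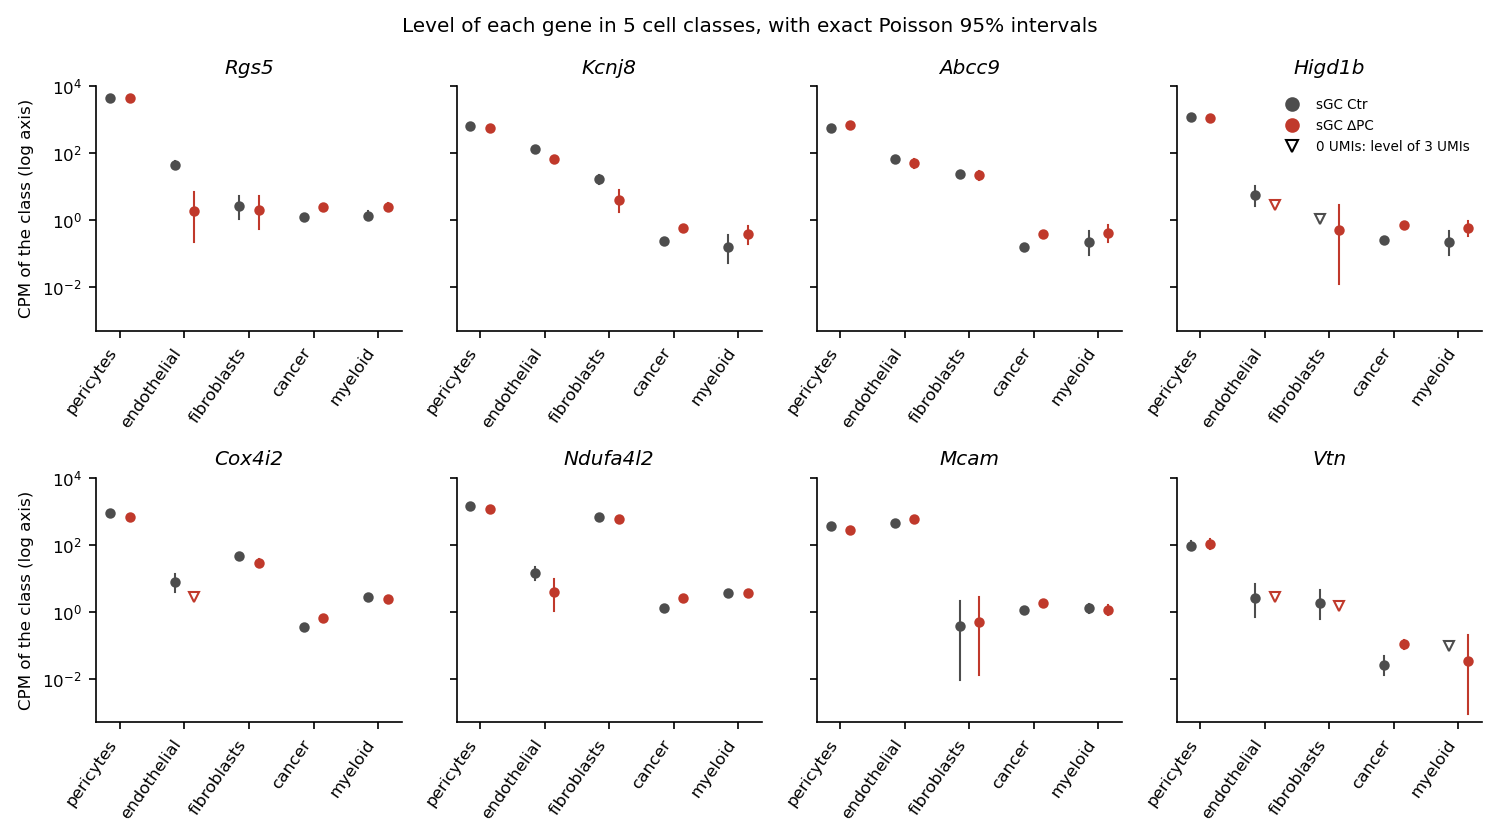
Level of each gene in CPM (log axis) in 5 cell classes of the *sGC* Ctr and *sGC* ∆PC libraries, with exact Poisson 95% intervals and, for classes with 0 UMIs, the level of 3 UMIs as an open triangle. *Mcam* alone is higher in ECs than in pericytes, *Ndufa4l2* is within about 2-fold in fibroblasts, and the others are 4-fold or more lower outside pericytes.

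*Rgs5*, a GTPase-activating protein that shortens signaling by heterotrimeric G proteins, was the most abundant of the 8 in pericytes. It had 2132 UMIs (4502 CPM, 4313 to 4698) in *sGC* Ctr and 1304 UMIs (4299 CPM, 4069 to 4539) in *sGC* ∆PC pericytes, and made up 46.9% and 48.8% of the UMIs of the 8 genes. All 37 *sGC* Ctr pericytes and 25 of 26 *sGC* ∆PC pericytes had a UMI. In cancer cells, which have deeper counts (median 50144 and 13421 UMIs, against 11401 and 10052 in pericytes), 2.24% and 2.01% of cells had one. Outside pericytes *Rgs5* ranged from 1.20 to 44.8 CPM, and the value of 44.8 was that of *sGC* Ctr ECs.

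That EC value came from 1 cell, which held 70 of the 71 *Rgs5* UMIs. The cell had 51797 UMIs, all 8 genes and 4 of the 6 pericyte gate markers at 17.0% of the pericyte level, below the 25% that the gate required. With the richest cell of each class left out, *Rgs5* in pericytes stood 3519-fold above the next class (myeloid cells, 1.24 CPM) in *sGC* Ctr, against 100-fold above ECs with all cells. The richest cell was the 1 with the most UMIs of the gene itself, so leaving it out lowers each class by selection. In *sGC* ∆PC it stood 1712-fold (1350 to 2202) above myeloid cells with all cells and 1710-fold above cancer cells without the richest. Among the other classes the intervals of neighbors in the order overlapped, apart from ECs in *sGC* Ctr.

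Other RGS genes divided between classes. *Rgs4* had 167 and 121 UMIs in pericytes and *Rgs16* 104 and 64, and both were highest in pericytes in each library. *Rgs2* was highest in myeloid cells, with 8 and 12 UMIs in pericytes, and *Rgs3* in ECs, with 9 and 6. The 4 relatives therefore divided into a pair led by pericytes and a pair led by other cells.

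*Kcnj8* and *Abcc9* encode Kir6.1, the pore, and SUR2, the regulatory subunit, of the vascular ATP-sensitive potassium channel. In pericytes *Kcnj8* had 302 UMIs (638 CPM, 568 to 714) in *sGC* Ctr and 164 UMIs (541 CPM, 461 to 629.99) in *sGC* ∆PC. *Abcc9* had 259 UMIs (547 CPM, 482 to 618) and 202 UMIs (666 CPM, 577 to 764). UMIs of both subunit genes were thus present at similar levels, with *Kcnj8* to *Abcc9* UMI ratios of 1.17 (0.984 to 1.38) and 0.812 (0.657 to 1.00).

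ECs ranked next for both subunits in both libraries. *Kcnj8* was at 132 CPM (115 to 151) in *sGC* Ctr ECs and 64.5 CPM (50.2 to 81.6) in *sGC* ∆PC ECs, and pericytes stood 4.83-fold (4.04 to 5.80) and 8.38-fold (6.29 to 11.3) above them. *Abcc9* was at 67.5 CPM (55.3 to 81.6) and 49.5 CPM (37.1 to 64.8), with pericytes 8.10-fold (6.44 to 10.2) and 13.4-fold (9.89 to 18.6) above. *Kcnj8* had a UMI in 30 of 61 and 16 of 56 ECs, and in 0.557% and 0.896% of cancer cells. Either subunit was found in 39 and 24 ECs, of which 38 and 24 had no *Rgs5* UMI.

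Fibroblasts came after ECs for both channel genes and had fewer UMIs of *Kcnj8* than of *Abcc9*. Only cancer and myeloid cells, at 0.565 CPM or less, had overlapping intervals as neighbors in the order. *Abcc9* was at 23.1 and 21.8 CPM in fibroblasts, and *Kcnj8* at 16.8 and 3.97 CPM. The *Kcnj8* to *Abcc9* ratio there was 0.726 (0.483 to 1.08) in *sGC* Ctr and 0.182 (0.0739 to 0.390) in *sGC* ∆PC, against 1.95 (1.54 to 2.49) and 1.30 (0.897 to 1.90) in ECs. In *sGC* Ctr fibroblasts the interval spans equal counts, and UMIs of different genes do not compare the amounts of their proteins. *Kcnj11* and *Abcc8*, the pore and regulatory subunits of the channel in pancreatic β cells, had 0 UMIs in the pericytes of both libraries, which allows up to 6.34 CPM in *sGC* Ctr and 9.89 CPM in *sGC* ∆PC (3 counts of the total).

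*Higd1b*, *Cox4i2* and *Ndufa4l2* are the mitochondrial genes among the 8. *Higd1b* belongs to a family of hypoxia-inducible domain proteins of the inner membrane, *Cox4i2* encodes an alternative subunit 4 of complex IV (cytochrome c oxidase), and *Ndufa4l2* is a relative of *Ndufa4*, itself a complex IV subunit. All 3 have a widely expressed counterpart, which makes it possible to give each as a share of both forms within the same cells.

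*Higd1b*, like *Rgs5*, stood far above the next class in pericytes, by 216-fold (113 to 476) in *sGC* Ctr and 1587-fold (1345 to 1875) in *sGC* ∆PC. With the richest cell of each class left out these became 1753-fold and 1675-fold, against 3519-fold and 1710-fold for *Rgs5*. The *sGC* Ctr value of *Higd1b* rests on 1 UMI left in ECs (0.652 CPM, 0.0165 to 3.64) and is poorly determined. It had 582 UMIs (1229 CPM, 1131 to 1333) in *sGC* Ctr and 343 UMIs (1131 CPM, 1014 to 1257) in *sGC* ∆PC pericytes. In fibroblasts it had 0 and 1 UMIs, in *sGC* ∆PC ECs 0, and in *sGC* Ctr ECs 9, of which 8 were in the cell described above. The 0 counts allow up to 1.12 CPM in *sGC* Ctr fibroblasts and 2.80 CPM in *sGC* ∆PC ECs. The limit in *sGC* ∆PC ECs lies above the 0.712 CPM of cancer cells, the next class there. The 1587-fold and its interval therefore do not hold as a bound over ECs. *Higd1b* made up 90.0% (87.4 to 92.2) and 91.5% (88.2 to 94.1) of the UMIs of *Higd1b* and *Higd1a* in pericytes, and at most 2.69% in any other class.

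*Cox4i2* was high in pericytes and next highest in fibroblasts. It had 408 UMIs (862 CPM, 780.02 to 949) in *sGC* Ctr and 196 UMIs (646 CPM, 559 to 743) in *sGC* ∆PC pericytes. Fibroblasts had 45.8 CPM (38.1 to 54.6) and 28.3 CPM (21.4 to 36.6), with a UMI in 23 of 117 and 16 of 186 cells. Pericytes stood 18.8-fold (15.3 to 23.2) and 22.8-fold (16.9 to 31.2) above them. Unlike *Ndufa4l2* and *Higd1b*, *Cox4i2* stayed below its counterpart, and it made up 43.2% (40.0 to 46.5) and 35.1% (31.2 to 39.2) of the UMIs of both *Cox4* genes in pericytes, and 5.92% and 4.01% in fibroblasts. *Cox4i1* itself was at 1132 and 1193 CPM in pericytes, 1.10-fold (1.01 to 1.20) and 1.27-fold (1.14 to 1.41) above myeloid cells, the next class.

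*Ndufa4l2* marked fibroblasts as well as pericytes. It had 652 UMIs (1377 CPM, 1273 to 1487) in *sGC* Ctr and 347 UMIs (1144 CPM, 1027 to 1271) in *sGC* ∆PC pericytes. In fibroblasts it reached 685 CPM (654 to 717) and 574 CPM (541 to 608), and pericytes were 2.01-fold (1.84 to 2.20) and 1.99-fold (1.76 to 2.25) higher. A UMI was present in 86 of 117 and 121 of 186 fibroblasts, of which 82 and 117 had no *Rgs5* UMI, and in 3.02% and 3.15% of cancer cells. Fibroblasts held 51.3% and 33.0% of all *Ndufa4l2* UMIs in kept cells, and pericytes 18.2% and 9.91%. The intervals of neighbors in the order did not overlap, apart from those of ECs and myeloid cells in *sGC* ∆PC.

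The share of *Ndufa4l2* among the UMIs of *Ndufa4l2* and *Ndufa4* set pericytes and fibroblasts apart from the other classes. It was 94.8% (92.8 to 96.3) and 92.8% (89.7 to 95.2) in pericytes and 75.8% and 73.1% in fibroblasts. It was 7.94% and 2.58% in ECs, and 0.273% and 0.598% in cancer cells. *Ndufa4* was lowest in pericytes of the 5 classes, at 76.0 and 89.0 CPM.

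**Figure D2:**
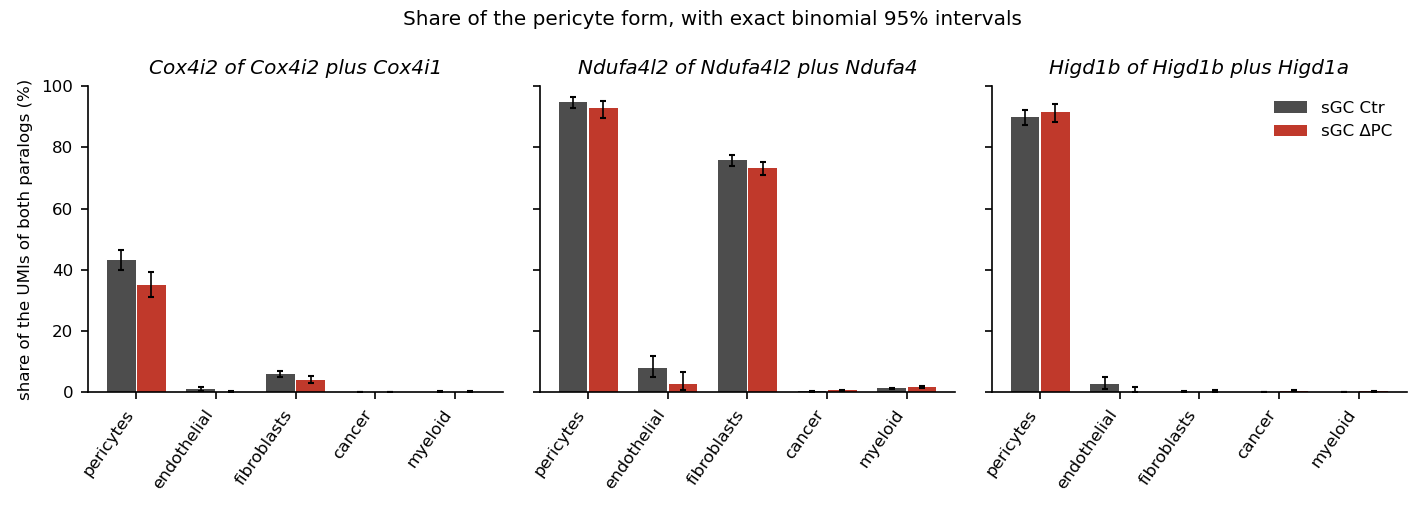
Share of *Cox4i2*, *Ndufa4l2* and *Higd1b* among the summed UMIs of each gene and its widely expressed paralog (percent), by cell class and library, with exact binomial 95% intervals. *Ndufa4l2* and *Higd1b* make up 90.0% to 94.8% in pericytes, *Cox4i2* at most 43.2%, and of the other classes only fibroblasts reach a high share, for *Ndufa4l2*.

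Fibroblasts with *Cox4i2* also had more *Ndufa4l2*. The 23 and 16 fibroblasts with a *Cox4i2* UMI had 1442 (1347 to 1542) and 1046 CPM (947 to 1153) of *Ndufa4l2*, against 469.96 and 461 CPM in fibroblasts without one. The fibroblasts with a *Cox4i2* UMI were deeper (median 25320 against 19864.5 and 24176.5 against 3292.5 UMIs), and the part of depth in this was not tested. Across single cells, *Cox4i2* and *Ndufa4l2* per 10000 UMIs had a Spearman coefficient of 0.59 over 37 and 0.69 over 26 pericytes, and of 0.46 and 0.32 over the fibroblasts. The cells of a library share its preparation, and these coefficients are descriptions.

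*Mcam*, which encodes the adhesion molecule CD146, was shared by both cell types of the vessel wall. In ECs it had 698 UMIs (441 CPM, 408 to 474) and 617 UMIs (577 CPM, 532 to 624). In pericytes it had 169 UMIs (357 CPM, 305 to 415) and 82 UMIs (270.3 CPM, 215 to 336), which is 0.81-fold (0.68 to 0.96) and 0.47-fold (0.37 to 0.59) the EC level. A UMI was found in 56 of 61 and 48 of 56 ECs, and in 1 of 117 and 1 of 186 fibroblasts. After thinning to 2000 UMIs, a UMI remained in 20 of 37 and 6 of 25 pericytes. *Mcam* was thus a gene of both vascular cell types with almost no signal in fibroblasts, where its interval overlapped those of cancer or myeloid cells.

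*Vtn* encodes vitronectin, a secreted adhesive glycoprotein that binds integrins, and was the least abundant of the 8. It had 44 UMIs (92.9 CPM, 67.5 to 125) in *sGC* Ctr and 32 UMIs (105 CPM, 72.2 to 149) in *sGC* ∆PC pericytes, found in 21 of 37 and 11 of 26 cells. Outside pericytes it was at most 2.52 CPM, in *sGC* Ctr ECs, where the cell described above held all 4 UMIs. Without the richest cell of each class, pericytes stood 68.7-fold above fibroblasts in *sGC* Ctr and 875-fold above cancer cells in *sGC* ∆PC. The *sGC* Ctr value rests on 3 UMIs left in fibroblasts (1.12 CPM, 0.232 to 3.29). In *sGC* ∆PC, ECs and fibroblasts had 0 UMIs, which allows up to 2.80 and 1.49 CPM. These limits lie above the 0.107 CPM of cancer cells, so the 875-fold does not hold as a bound over ECs or fibroblasts.

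Genes of integrins that bind vitronectin were measured in the same pericytes. *Itgb1* was at 1107 and 1042 CPM in pericytes, *Itgb5* at 194 and 132 CPM and *Itgav* at 127 and 112 CPM. *Itgb3* had 10 and 6 UMIs and *Itgb8* 0 in both libraries. These levels were not particular to pericytes. In fibroblasts *Itgb5* was at 168 and 162 CPM and *Itgav* at 120 and 117 CPM, and in ECs *Itgb1* was at 864 and 923 CPM.

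The makeup of the 8 genes differed by class. Of their UMIs in ECs, *Mcam* made up 61.7% and 82.8%. Of those in fibroblasts, *Ndufa4l2* made up 88.3% and 91.0%. In pericytes *Ndufa4l2*, *Higd1b*, *Cox4i2*, *Kcnj8* and *Abcc9* each made up between 5.69% and 14.3%, and the makeup in cancer and myeloid cells was mixed at far lower levels.

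**Figure D3:**
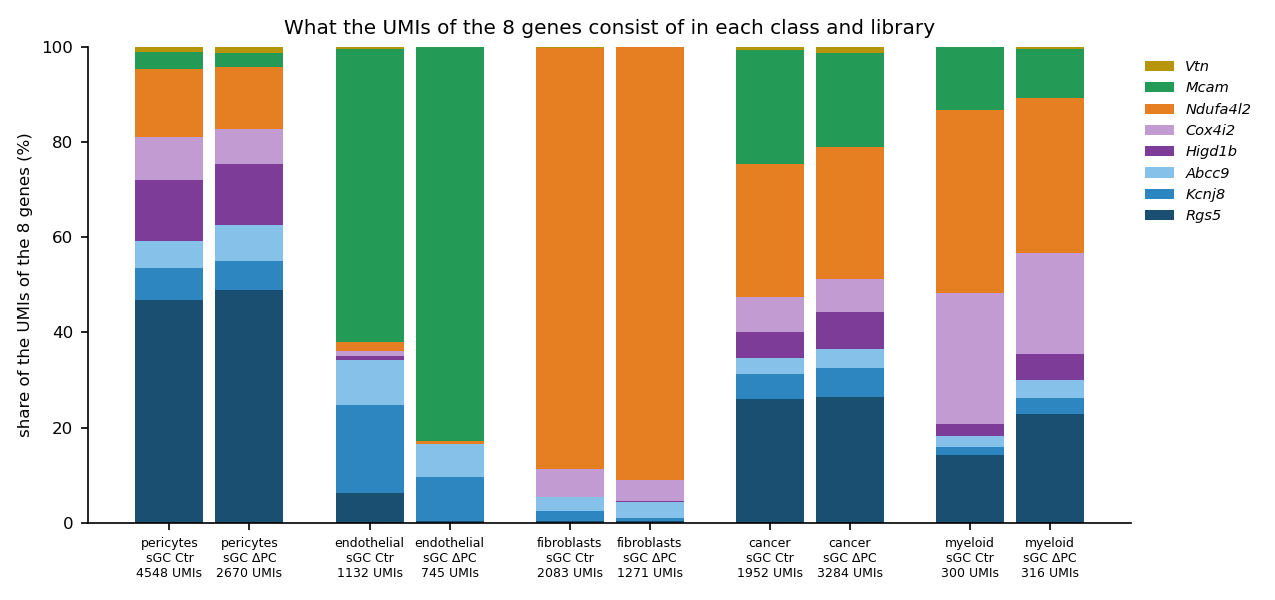
Makeup of the summed UMIs of the 8 genes (percent) in each cell class and library, with the number of UMIs under each bar. *Mcam* leads in ECs, *Ndufa4l2* in fibroblasts and *Rgs5* in pericytes, in both libraries.

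Cancer cells carried traces of all 8 genes. Their levels ran from 0.0260 to 1.29 CPM in *sGC* Ctr and from 0.107 to 2.58 CPM in *sGC* ∆PC. Over 7722 and 13511 cells these traces amounted to 17.8% and 31.9% of all *Rgs5* UMIs in kept cells, against 74.7% and 48.1% in the gated pericytes. Much of this lay in a few cells: the 10 of 7722 and 71 of 13511 cancer cells with 4 or more of the genes held 38.1% and 39.4% of the UMIs of the 8 genes in that class. Choosing cells by the genes themselves raises these shares by selection. In those cells the pericyte gate markers summed to 236 and 140 CPM, against 9.13 and 9.44 CPM in the other cancer cells. The part of pericyte RNA in these cells was not tested.

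Within single pericytes the genes were found together. The median pericyte had a UMI of 7 of the 8 genes in each library, with a range of 5 to 8 in *sGC* Ctr and 1 to 8 in *sGC* ∆PC, and all 8 were present in 17 of 37 and 9 of 26 cells. After each cell was thinned to 2000 UMIs, with 1 shallower *sGC* ∆PC pericyte left out, the median was 6 in both libraries. ECs, fibroblasts, cancer cells and myeloid cells had thinned medians of 1 or less. The summed level per cell ranged from 21.3 to 185 UMIs per 10000 in *sGC* Ctr, with a median of 98.8, and from 9.86 to 148 in *sGC* ∆PC, with a median of 92.6.

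Single pericytes covered a wide range for each gene. *Rgs5* ran from 2.63 to 105 UMIs per 10000 in *sGC* Ctr pericytes (median 42.1) and from 0 to 78.9 in *sGC* ∆PC pericytes (median 49.5). *Ndufa4l2* ran from 3.90 to 27.9 (median 12.9) and from 0 to 37.1 (median 9.64). *Vtn* reached 11.3 and 5.78, with medians of 0.548 and 0, and at these counts a cell at 0 may still express it.

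**Figure D4:**
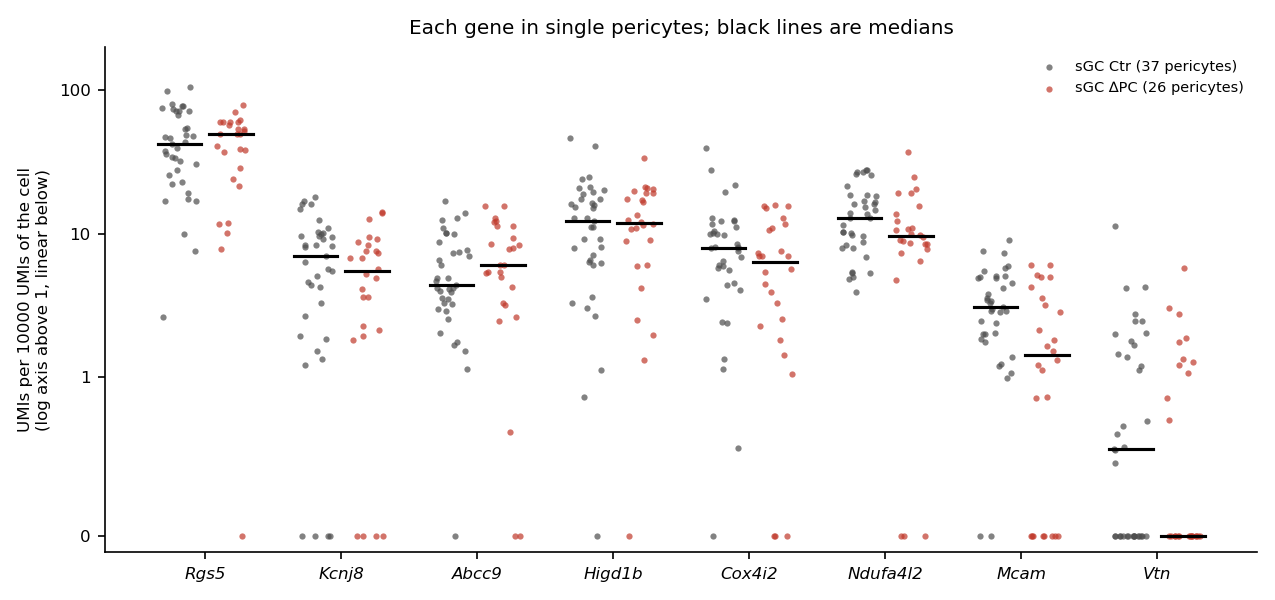
UMIs of each gene per 10000 UMIs of the cell in single pericytes (log axis above 1, linear below), for 37 *sGC* Ctr and 26 *sGC* ∆PC cells, with black lines at the medians. The cells of both libraries overlap for all 8 genes, and the *Mcam* median lies at 3.07 in *sGC* Ctr and 1.42 in *sGC* ∆PC.

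The coefficients of some pairs of genes differed between the libraries, which was not tested. *Kcnj8* and *Abcc9* had a Spearman coefficient of 0.21 in *sGC* Ctr and 0.76 in *sGC* ∆PC pericytes, and of 0.50 and 0.57 over ECs. *Kcnj8* and *Higd1b* had 0.61 and 0.16. With 37 and 26 cells and few UMIs per cell, these values are given as descriptions.

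Between the libraries, 0 of the 8 genes differed by 2-fold or more in pericytes. Of the 2358 genes with at least 50 UMIs in pericytes of both libraries together, 1.19% were 2-fold or more higher and 1.57% 2-fold or more lower in *sGC* ∆PC. All 8 genes passed this count. Their median log2 ratio was -0.18, with 2 higher and 6 lower, against a median of -0.05 and 56.6% lower over all 2358 genes. Summed over the 8 genes the log2 ratio was -0.13 (-0.20 to -0.06), and without *Rgs5*, which alone holds nearly as much as the others together, it was -0.18 (-0.28 to -0.08).

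By role, the signaling regulator *Rgs5* was at a log2 ratio of -0.07 (-0.17 to 0.03). Of the channel subunits, *Kcnj8* was at -0.24 (-0.52 to 0.04) and *Abcc9* at 0.28 (0.01 to 0.55). These intervals hold 0 for *Rgs5* and *Kcnj8* and narrowly leave it out for *Abcc9*.

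Of the mitochondrial genes, *Higd1b* was at -0.12 (-0.32 to 0.07), *Cox4i2* at -0.42 (-0.67 to -0.17) and *Ndufa4l2* at -0.27 (-0.46 to -0.08). The intervals of *Cox4i2* and *Ndufa4l2* leave out 0. Their counterparts *Cox4i1*, at 0.08 (-0.12 to 0.27), and *Ndufa4*, at 0.23 (-0.55 to 0.99), had intervals that hold 0, and the share of *Cox4i2* among both *Cox4* genes had intervals that did not overlap between the libraries. The adhesion gene *Mcam* was at -0.40 (-0.80 to -0.01), and *Vtn*, with the fewest counts, at 0.18 (-0.52 to 0.87).

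**Figure D5:**
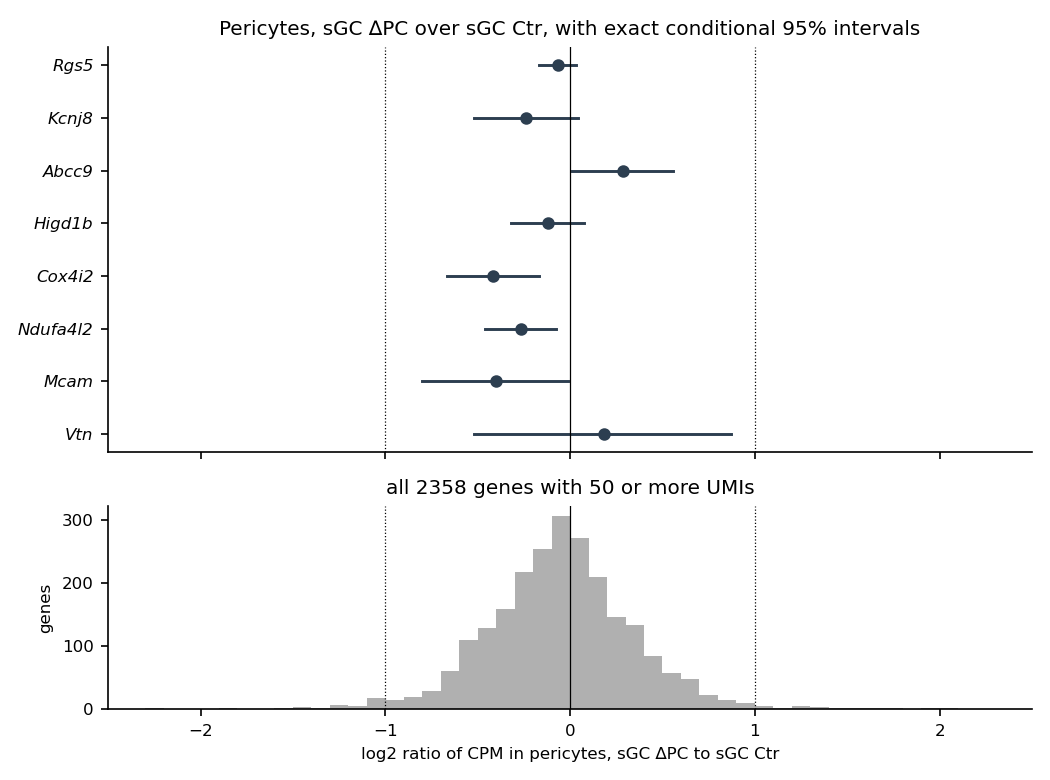
Log2 ratio of CPM between *sGC* ∆PC and *sGC* Ctr pericytes for each gene, with exact conditional 95% intervals (top), and the same ratio for 2354 of the 2358 genes with 50 or more UMIs, 4 being off the axis (bottom). All 8 points lie between the dotted lines at 2-fold, as do most genes.

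These small differences depended on which cells were counted as pericytes. The summed log2 ratio was 0.02 when only the 19 and 8 pericytes in which the markers of each other class were under 10% of that class's level were kept, 0.00035 when *Pdgfrb* was left out of the gate, and 0.15 in pericytes without a *Myh11* UMI. Of the single genes, 6 of 8 changed sign under at least 1 of 13 alternative choices, whereas *Abcc9* stayed above and *Mcam* below 0. Markers of cancer and myeloid cells were higher in *sGC* ∆PC pericytes (10.9% against 5.73% and 2.82% against 1.10% of the gate level), and their part in these ratios was tested no further than by leaving such cells out.

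Among pericytes without a UMI of *Myh11*, the smooth muscle myosin heavy chain, *Mcam* had the largest log2 ratio in size of the 8 genes. *Myh11* itself was at 302 CPM in *sGC* Ctr and 119 CPM in *sGC* ∆PC pericytes. Single *sGC* Ctr cells held 51, 37 and 20 of its 143 UMIs, and the richest *sGC* ∆PC cell 9 of 36. This difference in level therefore rests on few cells. Without a *Myh11* UMI there were 17 *sGC* Ctr and 13 *sGC* ∆PC pericytes, with median depths of 10053 and 8288 UMIs. In these *Mcam* had 81 UMIs (432 CPM, 343 to 537) in 17 of 17 *sGC* Ctr cells and 17 UMIs (139.7 CPM, 81.4 to 224) in 7 of 13 *sGC* ∆PC cells, a log2 ratio of -1.63 (-2.48 to -0.86). Without the 1 cell of each library with the most *Mcam* UMIs it was -1.59 (-2.57 to -0.72). In the 20 and 13 pericytes with *Myh11* it was at 308 and 358 CPM.

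In the same cells without *Myh11*, *Rgs5* was higher in *sGC* ∆PC, at 3372 (3114 to 3645) and 5096 CPM (4703 to 5513), and in those with *Myh11* it was lower, at 5243 (4981 to 5515) and 3765 CPM (3488 to 4058). For *Rgs5* 1 *sGC* ∆PC cell without *Myh11* held 207 of the 620 UMIs, and without the richest cell of each library the levels were 3049 and 4328 CPM. *Vtn* had 12 and 17 UMIs in the cells without *Myh11*, a log2 ratio of 1.13 (-0.03 to 2.32), but 2 *sGC* ∆PC cells held 15 of the 17. Without the 2 richest cells of each library the ratio was -0.79 (-4.09 to 1.60). A cell without a *Myh11* UMI at this depth may still express the gene, and the difference between both kinds of cell was not tested.

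Other mural genes were set beside these values. Of 34 further mural genes, 22 were highest in pericytes in both libraries and 19 had at least 50 UMIs. Of the 19, 0 were 2-fold or more higher and 4 were 2-fold or more lower in *sGC* ∆PC, with a median log2 ratio of -0.42. The 4 were the deleted *Gucy1b1*, *Cspg4* at -1.12 (-1.86 to -0.43), the potassium channel gene *Kcnk3* at -1.09 (-2.16 to -0.14) and the matrix gene *Tinagl1* at -1.07 (-1.85 to -0.35). *Cspg4* is also the gene that drives Cre, from an allele that the paper describes as a knock-in. The paper also names *Cspg4* among pericyte genes that Notch may regulate. The part of that allele in the *Cspg4* ratio was not tested and cannot be told apart from the library. The count of 4 and the median include both *Gucy1b1* and *Cspg4*. *Kcnk3* had 40 and 12 UMIs. Of all 2358 genes, 1.57% were 2-fold or more lower. The transcription factor gene *Ebf1*, at -0.32 (-0.56 to -0.08), and the endothelin receptor gene *Ednra*, at 0.38 (-0.05 to 0.80), were less than 2-fold apart. Of the 9 paralogs, 5 passed the count, 0 differed by 2-fold, and their median was 0.08.

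In the other classes the direction differed from gene to gene and from class to class. In ECs *Mcam* was higher in *sGC* ∆PC, with a log2 ratio of 0.39 (0.23 to 0.55), and *Kcnj8* lower, with -1.03 (-1.45 to -0.63). In fibroblasts *Ndufa4l2* was at -0.26 (-0.36 to -0.15), *Cox4i2* at -0.70 (-1.17 to -0.23) and *Kcnj8*, on 45 and 8 UMIs, at -2.08 (-3.37 to -0.98). In cancer cells all 8 were higher in *sGC* ∆PC, by 0.74 to 2.05, and by 0.71 to 1.74 without the cells that held 4 or more of the genes, where the interval of *Vtn* (4 and 11 UMIs) holds 0. Those cells were chosen by the genes themselves, so the second range is set in part by selection. Of 15448 genes with at least 50 UMIs in cancer cells, 51.8% were higher in *sGC* ∆PC and 4.05% were 2-fold or more higher, and 7 and 5 of the 7 members with that count were. Among the 5281 of these genes with fewer than 2000 UMIs, which include the 7 members, 64.9% were higher. Their median log2 ratio was 0.14, against 0.007 over all 15448. The share of the 5281 that was 2-fold or more higher was not worked out, so 4.05% is not a background matched for counts. Myeloid markers in the cancer cells were at 1.21% and 2.63% and pericyte markers at 0.380% and 0.401% of the gate level, and their part in these ratios was not tested.

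Genes were also ranked by how far they were restricted to the gated pericytes. The log2 of the pericyte CPM over the highest CPM among the other classes was taken, with 1 CPM added to each. The lower value of both libraries was used. By this measure *Higd1b* ranked 1 and *Rgs5* 6 of 2358 genes, *Vtn* 25, *Cox4i2* 32, *Abcc9* 44, *Kcnj8* 62, *Ndufa4l2* 131 and *Mcam* 1994. The leading other genes, the gate markers left out, were *Myh11* (6.72), *Rgs4* (6.65), *Lmod1* (6.55), *Myl9* (6.47), *Actg2* (6.32), *Dlk1* (6.14), *Actc1* (6.12), *Kcnmb1* (5.95), *Synpo2* (5.77) and *Trpc6* (5.70). *Higd1b* had 7.52 and *Rgs5* 6.62 on the same scale. Both ranks rested on the *sGC* Ctr EC that held 70 *Rgs5* UMIs: without it *Rgs5* ranked 1 (10.26) and *Higd1b* 2 (9.37). Without that cell the contractile genes *Myh11*, *Lmod1*, *Myl9*, *Actg2* and *Actc1* ranked 6, 7, 8, 9 and 11. They thus came after *Rgs5* and *Higd1b* and before the rest of the 8 genes, of which *Vtn* was first at 22. Gate markers are counted in the ranks. With 1 CPM added, the measure cannot exceed the log2 of the pericyte CPM plus 1, so it also depends on abundance.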

How the data were processed

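Single-cell RNA was measured in 1 library per condition. The authors aligned reads to mm10 with Cell Ranger 6.1.1 and deposited UMI counts per gene and barcode, with empty barcodes set aside. Computation used Python 3.11.15, numpy 2.4.6, scipy 1.17.1 and pandas 2.3.3. Barcodes with 10% or more mitochondrial UMIs were dropped, as were those whose log UMI or gene number lay over 3 median absolute deviations from the median of their library. A cell joined a class when at least 50% of its markers had a UMI and their summed CPM reached 25% of the reference level, the mean over both libraries of the median in cells with all markers, and when it passed no other gate. No doublet caller was run. The authors' cluster labels were not used here, so classes may differ from theirs. Summed UMIs per class were divided by the UMIs of the class; 3′ counts were not scaled for gene length. Ratios over all genes added 0.5 counts, and thinned cells held 2000 UMIs. Gene positions came from GENCODE (GRCm38), whose identifiers matched those of the files for all 8 genes.

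The 8 genes, the gene lists and the motifs were chosen with earlier results of these data known, and gate thresholds after marker counts, but not counts of the 8 genes, were seen. Named genes were the 8, the listed mural genes, paralogs and vitronectin binders, *Gucy1b1*, and the 10 other genes most restricted to the gated pericytes. A listed gene is not reported here. Steps were tested on simulated data. Exact Poisson, binomial and conditional binomial intervals were used, and no p-value is given.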

Additional observations from a re-analysis of the deposited data

Results flagged for a closer look

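In 4 cases a gene had log2 ratios of *sGC* ∆PC to *sGC* Ctr of opposite sign in pericytes and in another class, with both intervals leaving out 0. *Cox4i2* was at -0.42 in pericytes and 0.92 in cancer cells, and *Ndufa4l2* at -0.27 and 1.00. *Mcam* was at -0.40 in pericytes, 0.39 in ECs and 0.74 in cancer cells. The differences between classes were not tested, and in cancer cells the levels were at most 2.58 CPM.

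The 8 genes were also high in barcodes that no comparison used. Among barcodes left out of the kept cells, 3 of *sGC* Ctr and 2 of *sGC* ∆PC passed the pericyte gate alone and held 7687 and 7156 CPM of the 8 genes, with median mitochondrial shares of 18.1% and 15.2%. In *sGC* ∆PC, 15 cells passed both the pericyte and the cancer cell gate and held 1862 CPM, against 1 such cell in *sGC* Ctr.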

How the results depend on the processing

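Pericytes had the highest level of 7 of the 8 genes in each library under all 13 alternatives, 3 of which were added after seeing the data (cells with another class under 25%, a gate without *Gucy1a1*, and 1 pericyte of each library with the most UMIs of the 8 genes left out). Leaving out the richest cell of each class, also added, gave 7 as well. The summed log2 ratio of -0.13 ranged from -0.18 to 0.15, with 10 alternatives below 0 and 3 above. It was 0.023 with cells under 10% of another class's level (19 and 8 pericytes), 0.15 without *Myh11* UMIs and 0.00035 with *Pdgfrb* out of the gate. The alternative with at least 200 genes in place of the median absolute deviations kept the same 37 and 26 pericytes. It therefore repeats the main log2 ratios, summed and of single genes, and is counted among those that stayed. Without *Rgs5* the ratio of -0.18 ranged from -0.31, with every cell thinned to 2000 UMIs, to 0.063, with cells under 10% of another class's level. Of 104 values of single genes, 89 stayed within the interval of the main value and 15 did not, and 2 reached 2-fold, both in pericytes without *Myh11*: *Mcam* at -1.63 and *Vtn* at 1.13, of which *Vtn* rests on 2 *sGC* ∆PC cells with 15 of 17 UMIs and was at -0.79 without the 2 richest cells of each library. That and the other values without single rich cells or without cancer cells holding 4 or more of the genes were also added after seeing the data. The causes of these shifts were not tested.

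Classes from Leiden clusters gave no value, because no *sGC* ∆PC cluster was led by pericyte markers. No paired analysis was possible because each condition is 1 library. Replicates could not be left out for the same reason. With 37 and 26 pericytes, genes with few counts had wide intervals, such as -0.52 to 0.87 for the log2 ratio of *Vtn*. Small differences in such genes cannot be told from counting error, and no limit of detection was worked out.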

Other observations

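Cancer cells of each library were divided into 4 equal bins by the summed level of 9 hypoxia genes. The common relative *Higd1a* was at 73.6 CPM in the lowest and 263 CPM in the highest bin of *sGC* Ctr cancer cells, and at 76.5 and 247 CPM in *sGC* ∆PC, whereas *Ndufa4* was at 561 and 359 CPM, and at 489 and 347 CPM. *Ndufa4l2* was at 0.945 (0.761 to 1.16) and 2.24 CPM (1.96 to 2.54) in *sGC* Ctr, and at 1.74 (1.46 to 2.06) and 3.66 CPM (3.24 to 4.11) in *sGC* ∆PC. *Cox4i2* was at 0.229 and 0.581 CPM in *sGC* Ctr and at 0.928 and 0.708 CPM in *sGC* ∆PC. *Higd1b* was at 0.405 and 0.210 CPM and at 1.32 and 0.393 CPM. Without the 10 and 71 cells that held 4 or more of the 8 genes, *Higd1b* was at 0.0729 (0.0293 to 0.150) and 0.0669 CPM (0.0269 to 0.138) in *sGC* Ctr and at 0.276 (0.171 to 0.421) and 0.184 CPM (0.101 to 0.309) in *sGC* ∆PC, with overlapping intervals. *Cox4i2* was then at 0.104 and 0.134 CPM and at 0.184 and 0.605 CPM, so that its order in *sGC* ∆PC turned. *Ndufa4l2* was at 0.520 and 1.93 CPM and at 0.906 and 3.396 CPM, higher in the highest bin with and without those cells. The cells left out were chosen by the 8 genes themselves, so their removal lowers these levels by selection. In *sGC* ∆PC the lowest bin lost 22 cells and the highest 10, so the turned order of *Cox4i2* cannot be read apart from this choice. These bins are ranges of 1 score, with 1752 and 3076 cells within 10% of a cut, and all levels of *Ndufa4l2*, *Cox4i2* and *Higd1b* in them lie far below those of pericytes.

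Of the muscle-type subunits of complex IV, *Cox7a1* had 20 and 13 UMIs in pericytes. It was highest there in both libraries, at 42.2 and 42.9 CPM. The intervals of these levels overlapped those of fibroblasts in both libraries. Pericytes stood 1.69-fold (0.973 to 2.82) above fibroblasts in *sGC* Ctr and 2.06-fold (1.01 to 3.90) in *sGC* ∆PC. *Cox6a2* had 0 UMIs in pericytes. The common forms *Cox7a2* and *Cox6a1* were at 395 and 363 CPM and at 294 and 257 CPM in pericytes.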
